A study of Mus musculus with 9 samples.

Results

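The testis at 16 days of age was compared with the testis at both 8 and 24 days, to find genes whose RNA stood higher or lower at 16 days than at the ages on either side. The 3 arrays of 16 days were set against the other 6 arrays, 3 of 8 days and 3 of 24 days, which make up all 9 arrays. All mice were untreated males of an inbred Swiss albino line kept under the same housing, each array was hybridised with total RNA of whole testis, and the 3 arrays of an age are stated to be biological replicates. Replicate 3 of each age is the array whose title has no number. The values are log2 signals relative to each gene's median over the 9 arrays, so a value of 1 is 2-fold above that median and levels cannot be compared between genes. In total 19935 genes were tested.

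The first wave of spermatogenesis passes through the young testis almost in step. Spermatogonia enter meiosis under retinoic acid, cut their own chromosomes, pair and repair them as spermatocytes, and then form haploid spermatids, so each age adds a more advanced germ cell to those already there. A gene used for only a short stretch of meiosis can be higher in the middle age than before or after it. The sex chromosomes of a pachytene spermatocyte are packed away and silenced. Interferon, a signal of infection, switches on a set of defence genes in many cell types. In whole testis, fewer cells of a type and less RNA per cell cannot be told apart.

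Several arrays stood apart before any comparison. The 16-day arrays were less alike than those of either other age. Correlations were 0.15 between replicates 1 and 2 of 16 days, 0.27 between 1 and 3 and -0.32 between 2 and 3. Within 8 days they were 0.81 to 0.94 and within 24 days 0.92 to 0.95. Replicate 2 of 16 days had 0.29 to 0.335 with 24-day arrays and -0.18 to -0.525 with 8-day arrays. Replicate 3 of 16 days had -0.36 to -0.46 and 0.05 to 0.29. In replicate 1 of 16 days, 73 measured interferon-inducible genes had a mean of 0.99, against -0.17 to 0.07 in the other 8 arrays. In replicate 1 of 8 days and replicate 2 of 16 days, the median of 1027 olfactory receptor genes was 0.17, against -0.05 to 0.03 in the other 7 arrays. Red blood cell, lymphocyte and granulocyte genes were also raised in these same arrays, with mean values of 0.13 to 0.31 in the first and 0.19 to 0.26 in the second over lists of 7, 20 and 17 measured genes. The rise was not confined to blood cell lists. Epididymis and efferent duct genes had means of 0.18 and 0.19 in these arrays. Over all genes the means were 0.03 and 0.04 and the medians 0.12 and 0.02. The part of these differences in the results was not tested, and counts are therefore given with and without these arrays.

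The promoters of 5 genes are printed to show matches to letters bound by regulators of meiotic entry and of the interferon response. Each stretch is the 200 bases before the RefSeq start of the gene (GRCm38.p6), 5′ to 3′ on the gene's strand. In Msh5 (chr17:35046623-35046822, minus strand), Prdm9 (chr17:15564355-15564554, minus strand) and Ugt8a (chr3:125938653-125938852, minus strand), which peaked at 16 days, the capitals mark CNCCTCAG on either strand, the letters known for binding of the meiotic initiators STRA8 and MEIOSIN. In Gbp3 (chr3:142559844-142560043, plus strand) and Irgm1 (chr11:48871421-48871620, minus strand), which were high in a single array of 16 days, the capitals mark overlapping matches on either strand to the core of the interferon-stimulated response element, taken here as GAAA, any 2 bases and GAAA again.
Msh5: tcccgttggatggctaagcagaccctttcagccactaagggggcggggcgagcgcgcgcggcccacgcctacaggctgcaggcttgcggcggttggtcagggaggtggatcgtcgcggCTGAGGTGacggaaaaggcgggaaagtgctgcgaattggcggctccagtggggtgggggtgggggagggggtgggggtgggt
Prdm9: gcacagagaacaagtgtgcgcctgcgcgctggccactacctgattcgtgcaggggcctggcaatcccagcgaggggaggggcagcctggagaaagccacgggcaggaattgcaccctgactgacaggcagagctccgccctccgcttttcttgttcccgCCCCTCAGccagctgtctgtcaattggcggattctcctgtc
Ugt8a: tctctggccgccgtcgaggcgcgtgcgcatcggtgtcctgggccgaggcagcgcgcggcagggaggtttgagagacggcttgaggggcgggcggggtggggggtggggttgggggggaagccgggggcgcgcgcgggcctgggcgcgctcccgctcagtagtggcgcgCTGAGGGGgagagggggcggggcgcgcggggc
Gbp3: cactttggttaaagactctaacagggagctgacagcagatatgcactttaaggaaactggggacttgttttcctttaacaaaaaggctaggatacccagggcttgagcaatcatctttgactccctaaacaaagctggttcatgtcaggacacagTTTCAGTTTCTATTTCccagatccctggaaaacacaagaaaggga
Irgm1: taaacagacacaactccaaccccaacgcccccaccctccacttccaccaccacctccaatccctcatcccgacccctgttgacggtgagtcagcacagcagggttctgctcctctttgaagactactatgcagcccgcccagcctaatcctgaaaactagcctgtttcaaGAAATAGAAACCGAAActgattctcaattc
The CNCCTCAG match began 82, 41 and 32 bases before the start in Msh5, Prdm9 and Ugt8a. These letters were searched for after the peaks had been seen, and the printed peaks were picked from those with a match. Msh5 stayed a peak whichever of the 9 arrays was left out, but Prdm9 did so in 2 of these 9 fits and Ugt8a in 3. The other peaks with a match were Afdn, Fmr1nb, Mfsd8, Mov10l1, Parp12, Sdk1, Tpbgl and Zfp385b. No match was found for the meiotic peaks Ccnb3, Dmc1, Zcwpw1, Topbp1, Ythdc2 and Gm960. In the full windows of 250 bases before and 50 bases after a gene's start, CNCCTCAG was present in 11 of the 43 peaks that had a promoter in the table (25.6%), in 3 of 48 dips (6.25%) and in 1578 of 15561 genes tested (10.1%). Among the lists these letters were in 3 of 20 genes of meiotic entry and retinoic acid (15%), 3 of 26 of strand exchange (11.5%), 4 of 27 pachytene genes (14.8%) and 8 of 57 interferon-inducible genes (14%), all nearer to the share of all genes than the peaks were. The interferon response core was present in 24 of 57 interferon-inducible genes (42.1%), in 1 of 43 peaks (2.33%) and in 605 of 15561 genes (3.89%). The letters TTCNNNGAA, bound by STAT proteins, were in 1 of 43 peaks (2.33%), 4 of 48 dips (8.33%) and 9.01% of all genes. TGACGTCA, the cyclic AMP response element used in spermatids, was in 0 of 43 peaks, 1 of 48 dips (2.08%) and 2.72% of all genes. A match is only a description of these letters.

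Most genes that differed at 16 days from the average of both other ages had a 16-day mean between the means of 8 and 24 days. This was read from the order of the means alone, whether or not either step was called. Genes with little change in 1 of the intervals are therefore included. The contrast, the 16-day mean minus the average of the 8-day and 24-day means, was higher for 461 genes (2.31% of all tested) and lower for 611 (3.06%) at a limma adjusted p under 0.05. Over all 19935 genes the median contrast was 0.05, the median of 16 minus 8 days was -0.02 and that of 16 minus 24 days was 0.16. Of the 461 higher genes, 297 rose from 8 to 16 to 24 days with the larger step first, and 163 had their highest mean at 16 days (0.818% of all genes). Of the 611 lower genes, 306 rose from 8 to 16 to 24 days with the larger step last, 25 fell through both intervals and 280 had their lowest mean at 16 days (1.40% of all genes). The 1072 called genes became 613 without replicate 1 of 16 days.

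Early risers and late risers, by the order of their means, thus accounted for a large share of the called genes. Fabp9, a fatty acid-binding protein of sperm, had values of -0.08, 0.25 and 0.00 at 16 days, -5.36, -5.31 and -5.49 at 8 days and 0.63, 0.53 and 0.54 at 24 days. Its contrast was 2.47 ± 0.09 (standard error, limma adjusted p = 2.28e-06), although its 16-day arrays lay below all 3 arrays of 24 days. Smcp, a cysteine-rich protein of the sperm mitochondrial sheath, had values of -0.20, 0.03 and -0.41 at 16 days, 0.00, -0.51 and -0.35 at 8 days and 5.68, 5.29 and 5.17 at 24 days. It stayed near its 8-day level at 16 days, and its contrast was -2.74 ± 0.15 (limma adjusted p = 1.79e-05).

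**Figure D1:**
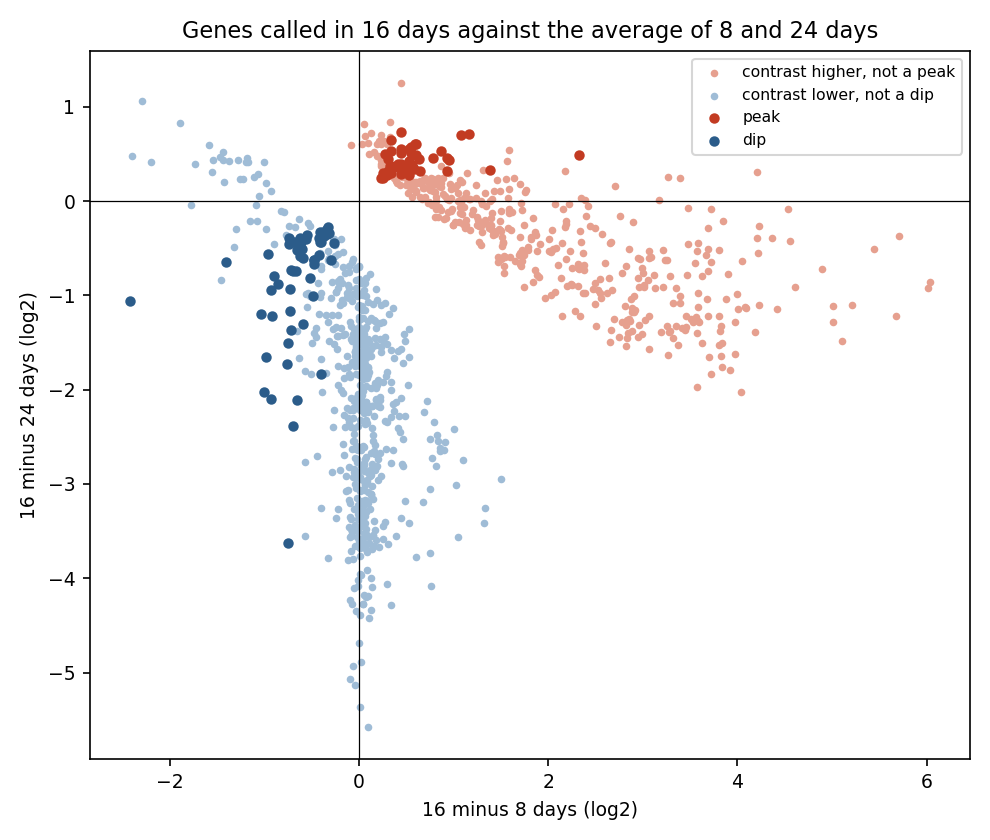
Each point is 1 of the genes called in the contrast of 16 days with the average of 8 and 24 days, or 1 of the 50 peaks and 56 dips; the x axis is 16 minus 8 days and the y axis 16 minus 24 days, both in log2. Pale points are called genes that were neither peak nor dip, and most of them lie near an axis or in the lower right; dark peaks fill a small area at the upper right and dark dips the lower left.

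A peak was taken as a gene higher at 16 days than at 8 days and than at 24 days, with each of both comparisons past its own limma adjusted p of 0.05, and a dip as the reverse. There were 50 peaks (0.251% of all genes) and 56 dips (0.281%). Taken singly, 16 minus 8 days was called higher for 10.4% and lower for 14.3% of all genes, and 16 minus 24 days higher for 20.1% and lower for 13.2%. These comparisons share the 16-day arrays. When instead the larger of both unadjusted p-values was adjusted over all genes, 0 peaks and 0 dips passed; 166 and 128 genes had both unadjusted p-values under 0.05, and the smallest larger p was 9.46e-05, for Elavl3. The peaks and dips below are thus described gene by gene and array by array. Of the 50 peaks, 40 were also called in the contrast, and of the 56 dips, 48.

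The peaks were small and the dips somewhat larger. For each gene the smaller of its differences from 8 and from 24 days was taken. It ranged from 0.24 to 0.71 in the peaks, with a median of 0.37, and from 0.26 to 1.06 in size in the dips, with a median of 0.50. No peak was 2-fold on both sides, while the dips of Cyp11a1 and Pknox2 were. All 3 arrays of 16 days lay above the other 6 arrays in 49 of 50 peaks, all but Prdm9. They lay below them in 54 of 56 dips, all but Cyp11a1 and Zfp949. Over all genes the shares were 1.64% above and 1.09% below. Peaks and dips were chosen on these same values, so little overlap was likely from the rule itself.

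The number of peaks and dips depended on single arrays. Without replicate 1 of 16 days, the array with high interferon-inducible genes, there were 16 peaks and 18 dips, of which 15 and 17 were among the original ones. The contrast kept its direction in all 50 peaks and all 56 dips without that array. These genes were chosen with that array included, and mostly had no overlap of arrays, so a change of direction was unlikely. Without replicate 2 of 16 days there were 84 peaks and 23 dips. That array was the closest of the 3 to the other ages in 30 of 50 peaks and the farthest in 39 of 56 dips. Leaving out replicate 3 of 16 days, replicate 1 of 24 days or replicate 3 of 24 days left 26, 18 and 30 peaks. Leaving out replicate 2 or replicate 3 of 8 days left 24 and 22 dips. Without both arrays with raised olfactory receptor genes there were 113 peaks and 43 dips, which held 40 of the original peaks and 30 of the original dips. When each array was centred on its own median, which shifted 16 minus 24 days by -0.09, 23 peaks and 40 dips were called, with 22 and 35 of the original ones. With blank cells left missing, 27 peaks and 35 dips were called.

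Of these, 13 peaks and 11 dips kept both calls whichever of the 9 arrays was left out and after centring. These peaks were Ccnb3, Parp12, Dcaf8l, Elavl3, Rskr, Sdk1, Msh5, Mov10l1, Atp6v0b, Pbx3, Zcwpw1, Topbp1 and Usp40. The dips were Tent5c, Dpysl3, Stambpl1, Slc6a6, Ace, Rbms1, Spaca6, Abhd2, Postn, Aldh3b1 and Ctxn1. The contrast itself did not pass without replicate 1 of 16 days for Parp12, Sdk1, Rskr, Usp40 and Slc6a6 (limma adjusted p from 0.0577 to 0.103). Stambpl1 lost a call without both arrays with raised olfactory receptor genes.

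Genes of early meiosis were among the peaks. Ccnb3 (gene ID 209091, chromosome X), which encodes cyclin B3, a cyclin made in early meiosis, had values of 0.74, 0.51 and 1.14 at 16 days, -0.63, -0.22 and -0.24 at 8 days and -0.01, 0.27 and 0.00 at 24 days. All 3 arrays of 16 days lay above the other 6, with replicate 3 the highest and replicate 2 the lowest. For Ccnb3 16 minus 8 days was 1.16 ± 0.17 and 16 minus 24 days 0.71 ± 0.17 (limma adjusted p = 0.000994 and 0.0119).

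Dmc1, the recombinase that carries out strand invasion at meiotic breaks, had values of 0.53, 0.59 and 0.73 at 16 days, -0.57, -0.79 and -0.03 at 8 days and -0.24, 0.00 and 0.00 at 24 days. The 16-day arrays spanned 0.20 and lay above every array of 8 and 24 days, while replicate 3 of 8 days lay among the 24-day values. For Dmc1 16 minus 8 days was 1.08 ± 0.17 and 16 minus 24 days 0.70 ± 0.17 (limma adjusted p = 0.00154 and 0.0130). It lost a call with 1 of the 9 arrays left out.

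Msh5, which with its partner Msh4 stabilises crossover intermediates and whose promoter is printed above, had values of 0.41, 0.59 and 0.37 at 16 days, -0.33, -0.63 and -0.46 at 8 days and 0.00, -0.05 and 0.04 at 24 days. Here replicate 2 was the highest of the 16-day arrays, and all 3 lay above both other ages. For Msh5 16 minus 8 days was 0.93 ± 0.10 and 16 minus 24 days 0.46 ± 0.10 (limma adjusted p = 0.000129 and 0.00751).

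Zcwpw1, a reader of the histone marks that Prdm9 writes at recombination hotspots, had values of 0.41, 0.35 and 0.47 at 16 days, -0.21, 0.00 and 0.10 at 8 days and -0.42, -0.26 and -0.30 at 24 days. The 16-day arrays were close together, and the 24-day arrays lay below all of those of 8 days. For Zcwpw1 16 minus 8 days was 0.45 ± 0.10 and 16 minus 24 days 0.74 ± 0.10 (limma adjusted p = 0.00832 and 0.000600).

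Prdm9 itself, the histone methyltransferase that places those hotspots, had values of 0.41, 0.23 and 0.65 at 16 days, -0.41, -0.24 and 0.29 at 8 days and -0.20, 0.00 and -0.05 at 24 days. Replicate 3 of 8 days, at 0.29, lay above replicate 2 of 16 days, at 0.23, so the groups overlapped. For Prdm9 16 minus 8 days was 0.55 ± 0.17 and 16 minus 24 days 0.51 ± 0.17 (limma adjusted p = 0.0431 and 0.0467), its contrast was 0.53 ± 0.15 with a limma adjusted p of 0.0834, and it lost a call in 7 of the 9 fits with an array left out.

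Topbp1, a scaffold that activates the checkpoint kinase ATR and coats unsynapsed meiotic chromosomes, had values of 0.36, 0.41 and 0.44 at 16 days, -0.22, -0.04 and -0.13 at 8 days and -0.15, 0.09 and 0.00 at 24 days. The 3 arrays of 16 days spanned 0.08 and lay above the other 6. For Topbp1 16 minus 8 days was 0.53 ± 0.09 and 16 minus 24 days 0.42 ± 0.09 (limma adjusted p = 0.00207 and 0.00682).

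Mov10l1, an RNA helicase that feeds precursors into the piRNA pathway, had values of 0.52, 0.40 and 0.44 at 16 days, -0.48, -0.33 and -0.18 at 8 days and -0.14, 0.13 and 0.00 at 24 days. Every 16-day array was above the highest 24-day array, which was replicate 2. For Mov10l1 16 minus 8 days was 0.78 ± 0.10 and 16 minus 24 days 0.46 ± 0.10 (limma adjusted p = 0.000537 and 0.00927).

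Ythdc2, a helicase that works with Meioc to turn off the mitotic programme at meiotic entry, had values of 0.37, 0.46 and 0.68 at 16 days, -0.66, -0.45 and -0.22 at 8 days and -0.05, 0.28 and 0.00 at 24 days. It rose from 8 days by 0.95 ± 0.14 and lay 0.43 ± 0.14 above 24 days (limma adjusted p = 0.000887 and 0.0378). Both calls held in 4 of the 9 fits with an array left out. Gm960, the gene of the topoisomerase VI B-like partner of Spo11, had values of 0.41, 0.25 and 0.46 at 16 days, -0.04, -0.45 and -0.10 at 8 days and -0.04, 0.00 and 0.11 at 24 days, and all 3 arrays of 16 days were the highest. Its differences were smaller, 0.57 ± 0.12 from 8 days and 0.35 ± 0.12 from 24 days (limma adjusted p = 0.00667 and 0.0485).

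**Figure D2:**
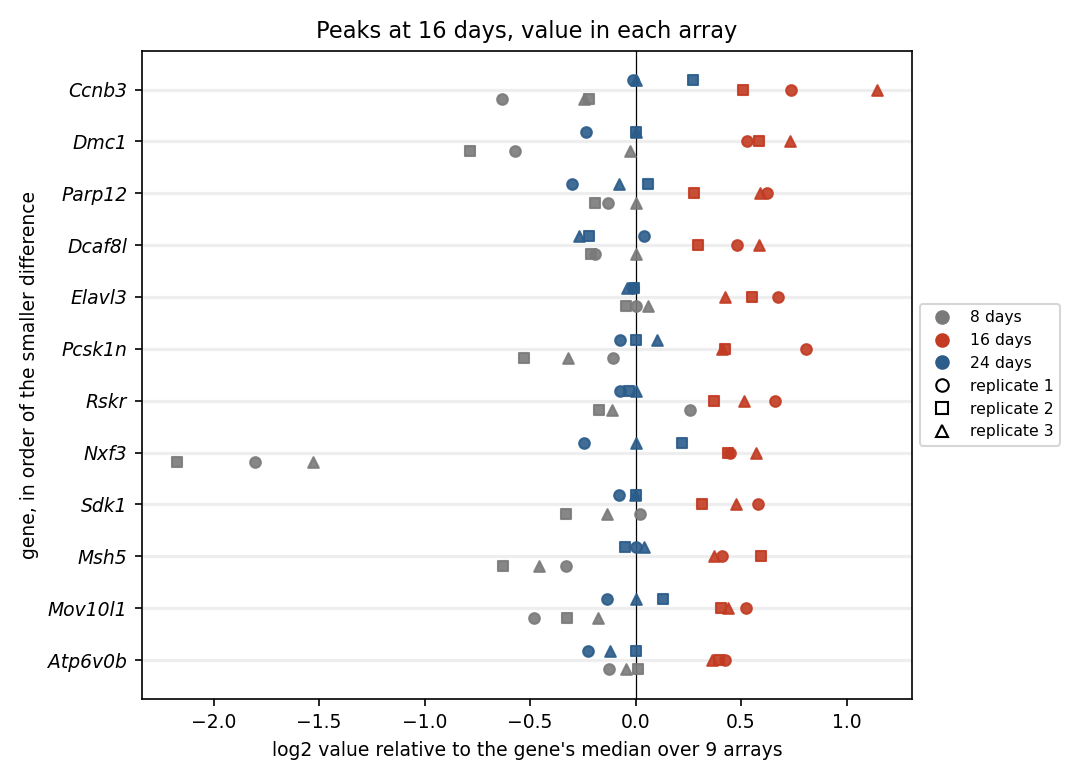
Value of 12 peaks in each of the 9 arrays, on the log2 scale relative to the gene's median; colour marks the age, the marker shape the replicate, and genes are ordered by the smaller difference. In each gene the 3 red points of 16 days lie to the right of the other 6, from 0.28 in Parp12 to 1.14 in Ccnb3, and Nxf3 is the gene with the widest gap to 8 days.

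Other peaks had no known place in meiosis on the lists. Parp12, an interferon-inducible ADP-ribosyltransferase, had values of 0.62, 0.28 and 0.59 at 16 days, -0.13, -0.19 and 0.00 at 8 days and -0.30, 0.06 and -0.08 at 24 days. Replicates 1 and 3 of 16 days were alike and replicate 2 was lower, and all 3 were above the other 6 arrays. For Parp12 16 minus 8 days was 0.60 ± 0.12 and 16 minus 24 days 0.60 ± 0.12 (limma adjusted p = 0.00604 and 0.00587). Its contrast without replicate 1 of 16 days was 0.54 and no longer passed (limma adjusted p = 0.0628), although both of its pairwise calls held. Elavl3, a neuronal RNA-binding protein, had values of 0.68, 0.55 and 0.42 at 16 days, 0.00, -0.05 and 0.06 at 8 days and -0.01, -0.01 and -0.04 at 24 days. The other 6 arrays lay between -0.05 and 0.06, and for Elavl3 16 minus 8 days was 0.55 ± 0.09 and 16 minus 24 days 0.57 ± 0.09 (limma adjusted p = 0.00147 and 0.00126).

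Atp6v0b, a membrane subunit of the proton pump of acidic vesicles, had values of 0.42, 0.40 and 0.36 at 16 days, -0.13, 0.01 and -0.05 at 8 days and -0.23, 0.00 and -0.12 at 24 days. Its 16-day arrays spanned 0.06, and their mean lay 0.45 ± 0.09 above 8 days and 0.51 ± 0.09 above 24 days (limma adjusted p = 0.00415 and 0.00221). Pbx3, a homeodomain partner of Hox proteins, had 16-day values of 0.45, 0.52 and 0.52, against -0.17, -0.03 and -0.23 at 8 days and 0.00, 0.15 and -0.01 at 24 days. The adhesion molecule Sdk1 was at 0.58, 0.31 and 0.48 at 16 days, and its 8-day and 24-day arrays lay between -0.33 and 0.02. The kinase gene Rskr had 16-day values of 0.66, 0.37 and 0.51, with replicate 1 of 8 days at 0.26 as the nearest array of another age.

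Ugt8a, the enzyme that makes galactosylceramide and through it the main glycolipid of germ cells, had values of 0.34, 0.25 and 0.55 at 16 days, 0.00, -0.05 and 0.17 at 8 days and -0.42, -0.19 and -0.19 at 24 days. All 3 arrays of 16 days were above the other 6, by 0.34 ± 0.11 over 8 days and 0.64 ± 0.11 over 24 days in the means (limma adjusted p = 0.0498 and 0.00239). It kept both calls in 3 of the 9 fits with an array left out. Asf1b, a chaperone of newly made histones, was at 0.30, 0.29 and 0.24 at 16 days, -0.27, -0.35 and -0.15 at 8 days and -0.10, 0.08 and 0.00 at 24 days, with every 16-day array the highest.

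Of the 50 peaks, 6 lay on the X chromosome, namely Ccnb3, Dcaf8l, Pcsk1n, Nxf3, Xist and Fmr1nb. The X chromosome held 12% of the peaks and 3.71% of the genes tested. Among its 739 genes, 0.812% were peaks, against 0.230% of 19103 autosomal genes. The contrast alone ran the other way, with 1.22% of X-linked genes called higher and 5.68% lower, against 2.36% and 2.96% of autosomal genes. Of the 56 dips, 3 were X-linked (5.36%), namely Efhc2, Rp2 and Gm9. Without replicate 1 of 16 days 2 of 16 peaks were X-linked (12.5%), and without both arrays with raised olfactory receptor genes 11 of 113 (9.7%). With array weights the count was 9 of 107 (8.4%), and with the olfactory receptor median as a covariate 9 of 172 (5.2%), near the share of all genes on the X chromosome. These shares are descriptive and were not tested.

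Dcaf8l, an X-linked adaptor of the Cul4 ubiquitin ligase, had values of 0.48, 0.30 and 0.59 at 16 days, -0.19, -0.21 and 0.00 at 8 days and 0.04, -0.22 and -0.27 at 24 days. Both other ages were alike and below every 16-day array. For Dcaf8l 16 minus 8 days was 0.59 ± 0.12 and 16 minus 24 days 0.60 ± 0.12 (limma adjusted p = 0.00474 and 0.00410). Nxf3, a member of the nuclear RNA export factors, had values of 0.45, 0.44 and 0.57 at 16 days, -1.80, -2.17 and -1.53 at 8 days and -0.24, 0.22 and 0.00 at 24 days. Its 8-day arrays were far below the rest, and for Nxf3 16 minus 8 days was 2.32 ± 0.16 and 16 minus 24 days 0.49 ± 0.16 (limma adjusted p = 7.32e-06 and 0.0436). Xist, the RNA that coats and silences an X chromosome in female cells, had values of 0.27, 0.20 and 0.35 at 16 days, 0.00, -0.18 and 0.00 at 8 days and -0.16, -0.42 and -0.20 at 24 days. The 3 arrays of 16 days were the highest, by 0.34 ± 0.10 over 8 days and 0.54 ± 0.10 over 24 days (limma adjusted p = 0.0325 and 0.00347). Both Nxf3 and Xist lost a call without replicate 1 of 16 days. Pcsk1n, an inhibitor of prohormone convertase, was at 0.81, 0.42 and 0.41 at 16 days, with replicate 1 the highest, and its other 6 arrays lay between -0.53 and 0.10.

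X-linked housekeeping genes declined with age. Of 51 measured, 0 were called in the contrast with limma, while 3 were higher and 1 lower at an unadjusted p under 0.05. Their median was -0.49 for 16 minus 8 days and 0.49 for 16 minus 24 days, with 32 members called lower at 16 than at 8 days (against 14.3% of all genes) and 29 lower at 24 than at 16 days (against 20.1% of all genes). Among 40 X-linked germ cell genes, 2 were higher and 7 lower in the contrast, against 2.31% and 3.06% of all genes. The lower ones were led by Akap4, the main scaffold of the sperm tail's fibrous sheath, at -0.14, 0.00 and -0.23 at 16 days and 4.77, 4.29 and 3.75 at 24 days.

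A small RNA gene was also a peak. Mir449c had values of 0.35, 0.43 and 0.31 at 16 days, 0.01, -0.36 and -0.25 at 8 days and 0.00, -0.06 and 0.00 at 24 days, and for it 16 minus 8 days was 0.57 ± 0.10 and 16 minus 24 days 0.39 ± 0.10 (limma adjusted p = 0.00301 and 0.0173). All 3 arrays of 16 days lay above the other 6. Mir449a, which lies beside it on chromosome 13, was at 0.32, 0.44 and 0.02 at 16 days, 0.36, -0.31 and -0.01 at 8 days and -0.07, 0.00 and -0.21 at 24 days, and did not pass. The host gene Cdc20b, looked at after the values of Mir449c had been seen, was at 0.28, 0.30 and 0.16, -0.36, -0.83 and -0.61 and 0.00, 0.15 and 0.00 at 16, 8 and 24 days, with a contrast of 0.52 ± 0.10 (limma adjusted p = 0.0153). Its 16 minus 24 day difference of 0.20 ± 0.12 did not pass (limma adjusted p = 0.210). The array reads RNA from the locus of a small RNA, not the mature molecule. The mature sequences (RefSeq, GRCm38.p6) are shown because miR-449c shares its seed, bases 2 to 8 in capitals, with miR-449a and with miR-34a and miR-34b, a family known for its role in spermatogenesis.
mmu-miR-449c-5p: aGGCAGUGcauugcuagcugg
mmu-miR-449a-5p: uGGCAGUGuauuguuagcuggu
mmu-miR-34a-5p: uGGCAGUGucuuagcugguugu
mmu-miR-34b-5p: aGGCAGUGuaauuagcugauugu
These lie at chr13:113036008-113036028, chr13:113037549-113037570 and chr4:150068473-150068494 on the plus strand and at chr9:51103610-51103632 on the minus strand. The rows of Mir34a, Mir34b and Mir34c had contrasts of 0.18 ± 0.14, 0.08 ± 0.09 and 0.05 ± 0.09, and none passed (limma adjusted p = 0.597, 0.692 and 0.812).

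The lists of early meiotic genes held 4 and 3 peaks, although most of their members were not peaks. Of 26 genes of meiotic entry and retinoic acid, 5 were higher and 0 lower in the contrast (limma; 7 and 1 at an unadjusted p under 0.05), and 4 were peaks, namely Ccnb3, Prdm9, Zcwpw1 and Ythdc2. The list's median contrast was 0.07, against 0.05 for all genes. From 8 to 16 days 6 of the 26 were called higher and 8 lower, and from 16 to 24 days 2 were called higher and 13 lower. Of 15 genes of double-strand break formation, 6 were higher, and 3 were peaks, Gm960 and again Prdm9 and Zcwpw1; the median contrast was 0.43. Here 8 were called higher and 1 lower from 8 to 16 days, and 1 higher and 6 lower from 16 to 24 days. Over all genes 2.31% were higher and 3.06% lower in the contrast, and 0.251% were peaks. From 8 to 16 days 10.4% were called higher and 14.3% lower, and from 16 to 24 days 13.2% and 20.1%. Spo11, which cuts the DNA, was no peak, with values of -0.05, 0.34 and 0.00 at 16 days, -2.75, -3.04 and -2.61 at 8 days and 0.11, 0.65 and 0.20 at 24 days. It rose by 2.90 ± 0.17 from 8 days and was -0.22 ± 0.17 against 24 days.

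Strand exchange and crossover genes formed the list with the most members highest at 16 days among the called ones. Of 32 measured, 14 were higher and 1 lower, and in 11 of the 14 the 16-day mean was the highest. The list's median contrast was 0.35. The shares of all genes were 2.31% higher and 3.06% lower, with 0.818% higher and highest at 16 days. Only Dmc1 and Msh5 of this list were peaks. Hfm1, a helicase needed for crossovers, had 16-day values of 0.34, 0.42 and 0.62 against -0.01, 0.41 and 0.00 at 24 days, so the groups overlapped at 0.41 and 0.34. Its contrast was 1.25 ± 0.13 (limma adjusted p = 0.000385), and 16 minus 24 days was 0.32 ± 0.15 (limma adjusted p = 0.122). Meiob, a single-strand DNA-binding protein, was likewise at 0.28, 0.37 and 0.44 and 0.00, 0.42 and -0.07 at these ages, after -3.36, -3.17 and -2.56 at 8 days. The member that was lower, 1700003H04Rik, was late, with 24-day values of 2.79, 2.44 and 2.28.

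Of 18 genes of the chromosome axis and synaptonemal complex, 7 were higher and 0 lower in the contrast (limma). At an unadjusted limma p under 0.05 these counts were 11 and 1. None of the 18 was a peak, and the median contrast was 0.39. Among all genes tested, 2.31% were higher and 3.06% lower in the contrast. Sycp1, the transverse filament protein that zips paired chromosomes, was at 0.06, 0.47 and 0.30 at 16 days and 0.00, 0.29 and -0.15 at 24 days, after -1.37, -0.95 and -1.24 at 8 days. Sycp2, a lateral element protein, and the axis protein Hormad1 differed from 24 days by -0.03 ± 0.14 and -0.03 ± 0.14. Of 15 telomere attachment genes, 3 were higher, with a median contrast of 0.13, and none was a peak; Majin, which tethers telomeres to the nuclear membrane, had values of 0.12, 0.38 and 0.02 at 16 days and 0.05, -0.04 and 0.00 at 24 days, which overlapped. Its 16 minus 24 day difference of 0.17 ± 0.11 did not pass (limma adjusted p = 0.210).

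Among genes chosen to mark stages, Stra8, the retinoic acid-induced starter of meiosis, had values of 0.14, -0.25 and 0.46 at 16 days, 0.00, 0.44 and 0.39 at 8 days and -0.73, -0.47 and -0.84 at 24 days. Its 8-day and 16-day arrays overlapped, and its contrast of 0.32 ± 0.16 did not pass (limma adjusted p = 0.395). Sycp3, another lateral element protein, had a contrast of 0.66 ± 0.17 (limma adjusted p = 0.0618). Kit, the receptor of differentiating spermatogonia, had a contrast of 0.09 ± 0.14 (limma adjusted p = 0.799), and its 16-day arrays, at 0.00, -0.37 and 0.31, had a mean between those of both other ages.

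Without replicate 1 of 16 days, the count of higher genes went from 5 to 4 for meiotic entry, from 6 to 4 for double-strand breaks, from 14 to 11 for strand exchange and from 7 to 5 for the axis. Peaks on the first 2 of these lists went from 4 to 2 and from 3 to 1. Without both arrays with raised olfactory receptor genes the same lists had 4, 6, 11 and 5 higher genes.

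**Figure D3:**
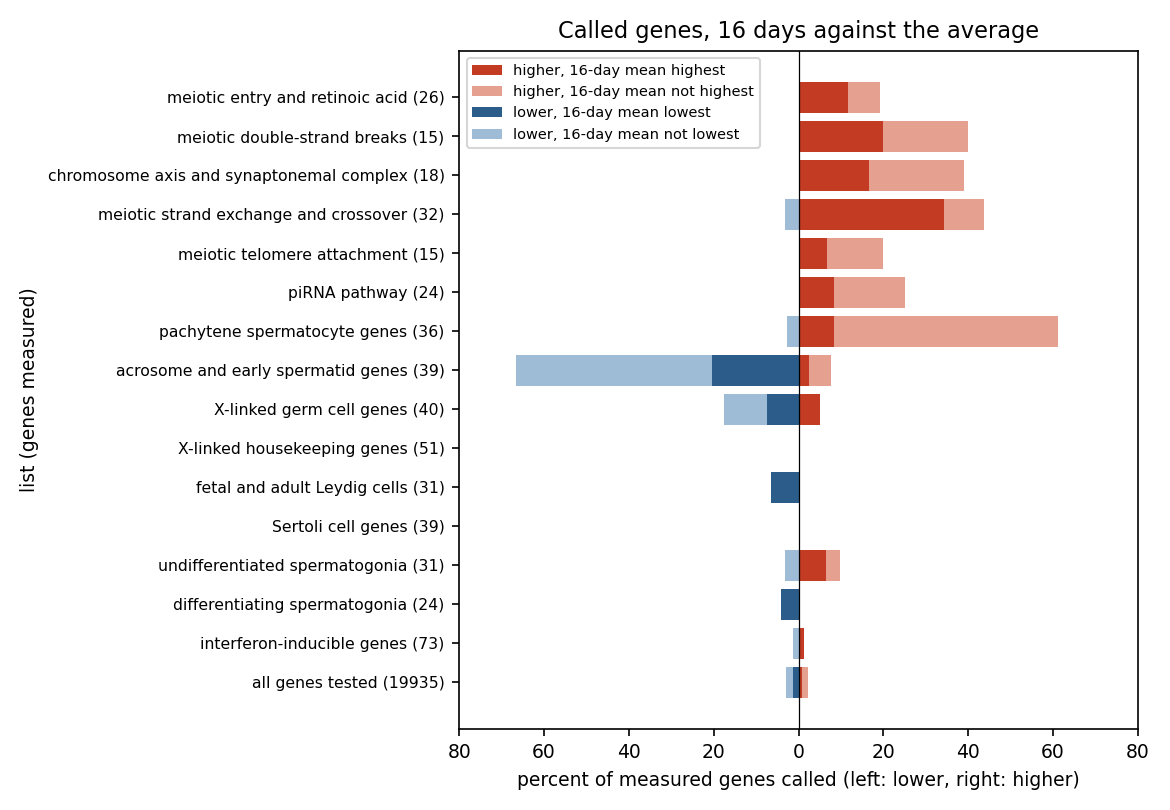
Percent of each list's measured genes, with their number in brackets, called higher (right) or lower (left) in the contrast of 16 days with the average of 8 and 24 days; dark bars are genes whose 16-day mean was the highest or the lowest of the 3 ages. The meiotic lists lie to the right, 22 of 36 pachytene genes are mostly pale, and 26 of 39 acrosome and early spermatid genes lie to the left, against 461 and 611 of all 19935 genes in the bottom bar.

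Pachytene genes mostly went on rising. Of 36 pachytene spermatocyte genes, 22 were higher and 1 lower, but only 3 of the 22 had their highest mean at 16 days. Of the 36, 28 were called higher at 24 than at 16 days. Among all genes tested, 2.31% were higher and 3.06% lower in the contrast. At 24 days 13.2% were called higher than at 16 days. Piwil1, the PIWI protein of pachytene spermatocytes, was at -0.08, 0.31 and 0.00 at 16 days and 0.21, 0.53 and 0.35 at 24 days. The difference between these ages did not pass (limma adjusted p = 0.105). Of 24 piRNA pathway genes, 6 were higher in the contrast and Mov10l1 was the only peak. Here 20 were called higher at 16 than at 8 days, against 10.4% of all genes. At 24 days 7 were called higher and 3 lower than at 16 days, against 13.2% and 20.1% of all genes. Tdrd12, a Tudor protein of this pathway, was at 0.03, 0.28 and 0.00 at 16 days and 0.00, 0.47 and 0.21 at 24 days, which overlapped (limma adjusted p = 0.539). Of 39 acrosome and early spermatid genes, 26 were lower and 3 higher, with a median contrast of -1.31. In 8 of the 26 the 16-day mean was the lowest, and Fhl5 was the list's single dip. Acrv1, an acrosomal protein, had values of 0.05, -0.26 and -0.29 at 8 days, -0.17, 0.00 and -0.30 at 16 days and 5.56, 5.37 and 4.67 at 24 days, so its contrast of -2.68 ± 0.18 came from the late rise. Tex101, a germ cell surface protein, was among the 3 higher, at 0.11, 0.18 and 0.21 at 16 days and -0.07, 0.28 and 0.00 at 24 days.

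The dips held genes of several kinds. Tent5c, a poly(A) polymerase needed for sperm structure, had values of -1.07, -0.72 and -1.03 at 16 days, -0.16, 0.32 and 0.00 at 8 days and 1.42, 0.82 and 1.01 at 24 days. The 3 arrays of 16 days were the lowest, and the 24-day arrays lay above all of those of 8 days. For Tent5c 16 minus 8 days was -1.0 ± 0.18 and 16 minus 24 days -2.03 ± 0.18 (limma adjusted p = 0.00263 and 3.62e-05).

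Ace, the angiotensin-converting enzyme, of which haploid germ cells make a testis form, had values of -0.80, -1.09 and -0.85 at 16 days, -0.07, 0.05 and 0.05 at 8 days and 0.83, 0.07 and 0.00 at 24 days. Replicate 1 of 24 days was the highest array, and replicates 2 and 3 of 24 days were level with 8 days. For Ace 16 minus 8 days was -0.92 ± 0.19 and 16 minus 24 days -1.22 ± 0.19 (limma adjusted p = 0.00678 and 0.00170). Spaca6, a sperm membrane protein needed for fusion with the egg, had values of -0.66, -0.81 and -0.75 at 16 days, 0.00, -0.07 and 0.03 at 8 days and 0.53, 0.07 and 0.00 at 24 days. Its 16-day arrays spanned 0.15 and lay below the other 6, and for Spaca6 16 minus 8 days was -0.72 ± 0.13 and 16 minus 24 days -0.94 ± 0.13 (limma adjusted p = 0.00301 and 0.000798).

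Stambpl1, a deubiquitinase specific to lysine-63 chains, had values of -0.81, -1.29 and -0.69 at 16 days, 0.00, 0.05 and -0.05 at 8 days and 1.62, 1.05 and 0.82 at 24 days. Its 8-day arrays lay between -0.05 and 0.05, and replicate 2 was the lowest array of 16 days. For Stambpl1 16 minus 8 days was -0.93 ± 0.20 and 16 minus 24 days -2.10 ± 0.20 (limma adjusted p = 0.00821 and 8.06e-05). Dpysl3, a cytoskeletal protein of growing axons, followed the same order of ages, with values of -0.81, -1.14 and -0.62 at 16 days, -0.01, 0.38 and 0.00 at 8 days and 1.22, 0.51 and 0.68 at 24 days; for Dpysl3 16 minus 8 days was -0.98 ± 0.20 and 16 minus 24 days -1.66 ± 0.20 (limma adjusted p = 0.00573 and 0.000323).

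Slc6a6, the taurine transporter, had values of -0.68, -1.29 and -0.37 at 16 days, 0.00, 0.26 and 0.19 at 8 days and 0.50, -0.15 and 0.14 at 24 days. Replicate 2 was the lowest of 16 days, and replicate 3 was the nearest to the other ages. For Slc6a6 16 minus 8 days was -0.93 ± 0.23 and 16 minus 24 days -0.95 ± 0.23 (limma adjusted p = 0.0139 and 0.0114). Rbms1, an RNA-binding protein, also had its lowest value in replicate 2, with 16-day values of -0.46, -1.23 and -0.48 and both other ages between 0.00 and 0.46. Abhd2, a lipid hydrolase that responds to progesterone in sperm, was at -0.54, -0.76 and -0.56 at 16 days, 0.01, 0.10 and 0.13 at 8 days and 0.44, 0.00 and -0.06 at 24 days.

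Postn, which encodes the matrix protein periostin, was higher at 8 than at 24 days, with values of -0.57, -0.74 and -0.45 at 16 days, 0.70, 1.13 and 0.61 at 8 days and 0.00, 0.24 and -0.06 at 24 days. All 3 arrays of 16 days were below the lowest of 24 days, which was -0.06. For Postn 16 minus 8 days was -1.40 ± 0.15 and 16 minus 24 days -0.65 ± 0.15 (limma adjusted p = 0.000112 and 0.00937). Aldh3b1, an aldehyde dehydrogenase, had this order too, at 0.39, 0.33 and 0.50 at 8 days, -0.40, -0.78 and -0.47 at 16 days and 0.14, -0.12 and 0.00 at 24 days. Of the 56 dips, 34 had a higher mean at 24 than at 8 days and the rest the reverse.

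Pknox2, a homeodomain partner of Pbx proteins, had values of -0.59, -1.14 and -0.67 at 16 days, 0.04, 0.64 and 0.00 at 8 days and 0.93, -0.07 and 0.32 at 24 days. The widest spread was at 24 days, where replicate 2 lay at -0.07. For Pknox2 16 minus 8 days was -1.03 ± 0.26 and 16 minus 24 days -1.19 ± 0.26 (limma adjusted p = 0.0167 and 0.00777), and both calls held in 7 of the 9 fits with an array left out. Fhl5, a co-activator of the spermatid transcription factor Crem, had values of -0.76, -0.60 and -0.75 at 16 days, 0.00, 0.16 and -0.04 at 8 days and 3.46, 2.85 and 2.44 at 24 days. Its step down from 8 days was -0.75 ± 0.21 and its difference from 24 days -3.62 ± 0.21, and it lost a call without replicate 1 of 16 days. Plk1, a kinase of cell division, was at -0.61, -0.56 and -0.46 at 16 days, -0.26, 0.09 and 0.00 at 8 days and 0.76, 0.19 and 0.45 at 24 days, and kept both calls in 4 of these 9 fits.

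**Figure D4:**
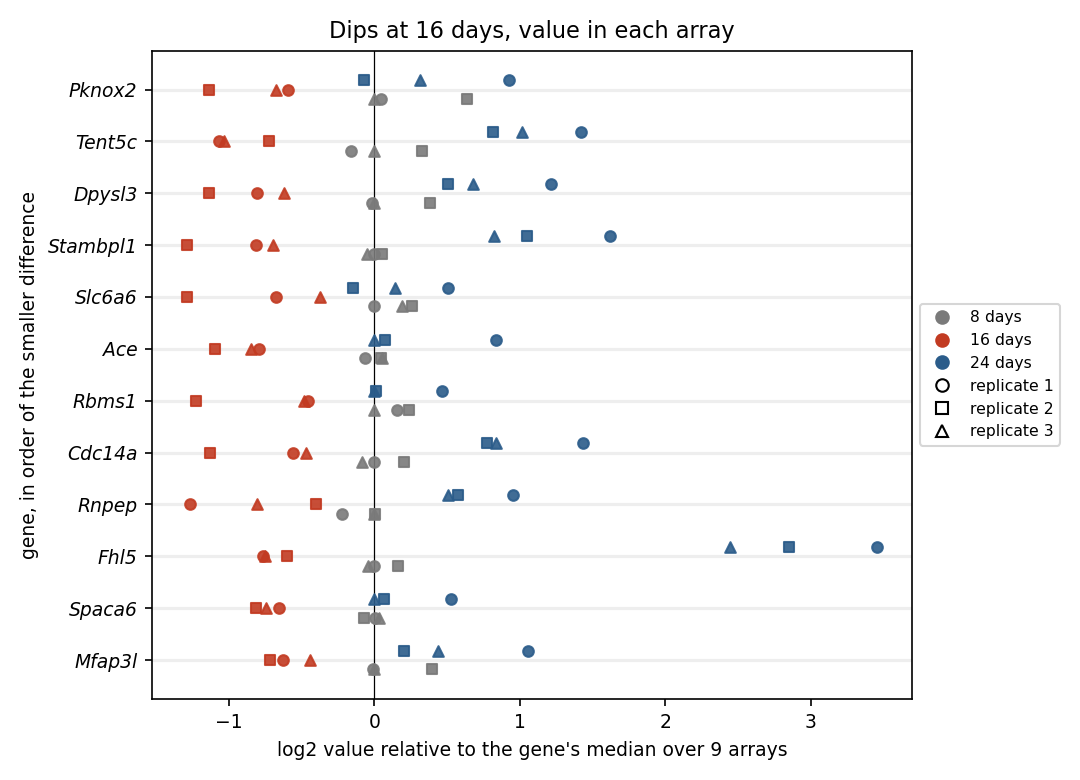
Value of 12 dips in each of the 9 arrays, on the log2 scale relative to the gene's median; colour marks the age, the marker shape the replicate, and genes are ordered by the smaller difference. The red points of 16 days lie to the left of the other 6 in every gene, the square of replicate 2 is often the farthest, and Fhl5 has 24-day values from 2.44 to 3.46.

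Of the steroid genes of Leydig cells, Cyp11a1 and Hsd3b1 were called lower in the contrast, and others did not pass. Cyp11a1, which makes the first steroid from cholesterol, had values of -1.63, -0.99 and -1.73 at 16 days, 0.85, 1.2 and 0.86 at 8 days and 0.19, 0.00 and -1.35 at 24 days. Replicate 3 of 24 days lay below replicate 2 of 16 days, so these ages overlapped. For Cyp11a1 16 minus 8 days was -2.42 ± 0.36 and 16 minus 24 days -1.06 ± 0.36 (limma adjusted p = 0.000976 and 0.0446), and both calls held in only 2 of the 9 fits with an array left out. Cyp17a1, which leads into androgens, had values of -2.25, -0.20 and -2.32 at 16 days, 1.72, 1.44 and 1.39 at 8 days and 0.15, 0.00 and -2.17 at 24 days, and its contrast of -2.01 ± 0.57 did not pass (limma adjusted p = 0.0839). In both genes replicate 2 was the highest array of 16 days and replicate 3 the lowest of 24 days. Of 31 measured Leydig cell genes, 0 were higher and 2 lower in the contrast (limma; 1 and 7 at an unadjusted p under 0.05), with a median contrast of -0.10; over all genes 3.06% were lower. The other lower gene was Hsd3b1, a dehydrogenase of steroid synthesis, at -0.32, -0.48 and -0.06 at 16 days, 0.66, 1.32 and 1.11 at 8 days and -0.20, 0.79 and 0.00 at 24 days. With replicate 1 of 16 days left out, 0 Leydig cell genes were called (limma). Star, which moves cholesterol into mitochondria, had a contrast of -0.62 ± 0.23 that did not pass (limma adjusted p = 0.206), and its mean was 0.14 at 16 days and -0.24 at 24 days.

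Sertoli cell and S-phase genes gave no calls. Lists of undifferentiated spermatogonia, differentiating spermatogonia and the blood-testis barrier gave 4, 1 and 1. Of 39 Sertoli cell genes, 0 were called (limma; 4 higher and 7 lower at an unadjusted p under 0.05), with a median contrast of -0.09. Of 31 genes of undifferentiated spermatogonia, 3 were higher and 1 lower (against 2.31% and 3.06% of all genes), and without replicate 1 of 16 days 1 and 0. Taf4b, a subunit of the transcription machinery in the germ line, was at 0.15, 0.00 and 0.20 at 16 days, near its 8-day values, and fell to -0.67, -0.47 and -0.65 at 24 days. Of 24 genes of differentiating spermatogonia, 0 were higher and 1 lower, and without replicate 1 of 16 days 0 and 0. Of 48 S-phase genes, 0 were called (limma; 1 higher and 0 lower at an unadjusted p under 0.05). Of 31 genes of the blood-testis barrier, Afdn, the junction protein afadin, was the single gene called and a peak, with values of 0.33, 0.22 and 0.29 at 16 days, 0.00, 0.01 and 0.00 at 8 days and -0.33, -0.10 and -0.23 at 24 days. Afdn kept both calls in 2 of the 9 fits with an array left out, and its contrast did not pass without replicate 1 of 16 days (limma adjusted p = 0.089).

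Interferon-inducible genes were highest on average at 16 days, and most of the difference was carried by a single array. Of 73 measured genes, 52 had their highest mean at 16 days, against 5023 of all 19935, and the median contrast was 0.30. Only Parp12 was called higher and Isg20 lower (15 and 1 at an unadjusted p under 0.05). Isg20 was at 0.00, 0.04 and -0.17 at 16 days and -0.14, -0.24 and -0.29 at 8 days. Its 24-day values were 2.48, 1.68 and 1.67, so its lower contrast came from the late rise. The highest of the 9 values was in replicate 1 of 16 days for 53 of the 73 genes, and 29 of them were at or above 1 there, against 0 in replicate 2 and 1 in replicate 3. Without replicate 1 of 16 days, 28 of the 73 had their highest mean at 16 days (5357 of all 19935), the median contrast was 0.05 (0.04 for all genes), 0 were called higher and 1 lower. Without replicate 2 of 16 days, 7 were called higher and 1 lower.

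The 6 interferon-inducible genes with the widest range at 16 days were Iigp1, Irgm1, Gbp7, Gbp3, Tap1 and Rtp4. Iigp1, a GTPase that attacks the vacuoles of parasites, was at 4.03, -0.17 and 0.11 in replicates 1, 2 and 3 of 16 days. Irgm1, of the same family, was at 3.72, -0.70 and 0.00, and without replicate 1 its contrast turned from 1.13 to -0.22. Gbp7 and Gbp3, guanylate-binding proteins, were at 3.13, -0.13 and 0.16 and at 2.51, 0.01 and 0.26. Tap1, a peptide transporter of antigen presentation, was at 2.57, 0.01 and -0.09. In these 5 genes replicates 2 and 3 lay within the range of the other 6 arrays, apart from replicate 3 in Gbp3 at 0.265, where the highest other array was at 0.264. Rtp4, an interferon-inducible chaperone, was at 2.57, 0.00 and 1.04, with replicate 3 above the highest other array at 0.86 and replicate 2 below it. None of these 6 was called (limma adjusted p from 0.22 to 0.53).

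Of 26 measured interferon ligands and receptors, 1 was higher and 0 lower in the contrast (limma; 3 and 0 at an unadjusted p under 0.05), against 2.31% and 3.06% of all genes. It was Irf3, a factor that switches on type I interferon genes, at 0.18, 0.18 and 0.11 at 16 days, -0.50, -0.19 and -0.33 at 8 days and 0.00, -0.06 and 0.01 at 24 days, with a contrast of 0.34 ± 0.08 (limma adjusted p = 0.0398). Irf3 lost this call in 7 of the 9 fits with an array left out, each of the 3 arrays of 16 days among them, without both arrays with raised olfactory receptor genes and after centring. Macrophage genes had a mean of 0.06 in replicate 1 of 16 days, against 0.08 and -0.04 in replicates 2 and 3, and lymphocyte genes a mean of 0.07, against 0.26 and -0.02. Of 28 macrophage genes, 0 were higher and 1 lower in the contrast, and of 20 lymphocyte genes 0 were called (limma; 1 higher and 2 lower, and 1 higher and 0 lower, at an unadjusted p under 0.05).

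**Figure D5:**
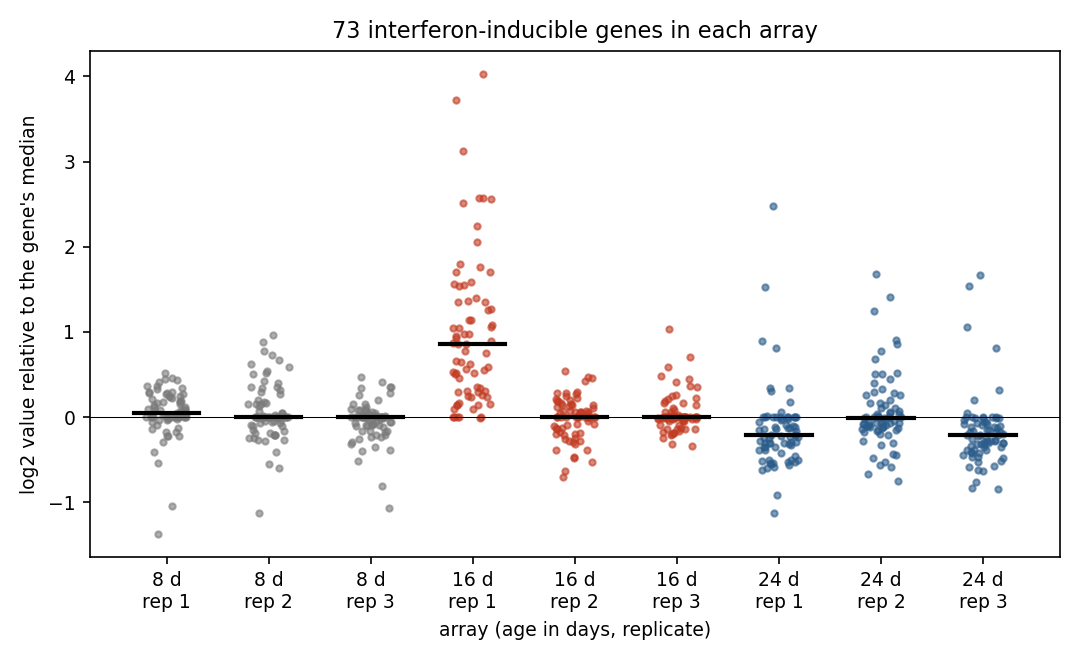
Each point is 1 of 73 interferon-inducible genes, its log2 value relative to the gene's median, in each of the 9 arrays; the black bar is the list's median. The median is 0.86 in replicate 1 of 16 days and between -0.22 and 0.05 in the other 8 arrays, and single genes reach 4.03 in that array.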

How the data were processed

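Biotin-labelled cDNA was made from total RNA of whole testis, per the labels. The authors deposited log2 values centred on the median of every row; background correction, normalization and summarization are not given in the sources used here. The probe table names the array as MoGene 1.0 ST. Blank cells (38964) were taken as 0, because every row's median was then 0. Rows with exactly 1 gene symbol (21780 of 28815) were averaged by gene after symbols were updated through RefSeq IDs (GRCm38.p6, 21689 rows matched), which left 19935 genes. No filter on dim genes was possible, and depth does not apply to arrays, whose number limits the precision.

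The model, with a mean for each age, used lmFit and eBayes of limma 3.58.1 under R 4.3.3 (6 residual and 3.82 prior degrees of freedom). All tests were two-sided, with p adjusted by Benjamini-Hochberg over all genes and a threshold of 0.05. Errors are limma's standard errors. On simulated data for the contrast with 19935 genes, 56%, 96% and 100% of genes raised by 0.5, 1 and 2 were called, and 12 of 19735 unchanged genes. Peaks and dips were recovered for 28%, 80% and 100% of the same rises.

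The members and the 32 gene lists were chosen with earlier results of these data known. Named genes were the 12 largest peaks and the 12 largest dips by their smaller difference without overlap of arrays, up to 4 called members per direction and 3 peaks and dips of each list, genes that mark stages, the 6 interferon-inducible genes with the widest range at 16 days, and small RNA genes; of these, the ones a result turns on are printed. Others that kept both calls with each array left out and after centring were added after their values were seen, as were Ugt8a, Asf1b, Xist, Plk1 and Mir449a. Alternatives were array centring, the row with the widest range, every row, blanks missing, array weights, robust eBayes, a replicate block, an olfactory covariate, a 2-fold minimum, treat, other definitions of a peak, and each array left out; added after seeing the data were both raised-olfactory arrays left out, the 6 numbered arrays alone and the letters CNCCTCAG. Same-numbered arrays did not deviate from their age means together (correlations from -0.461 to 0.453), so numbers were not taken as pairs. Figures used matplotlib 3.10.9 and tables pandas 2.3.3 in Python 3.11.15.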

Additional observations from a re-analysis of the deposited data

How the results depend on the processing

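The direction of the contrast held for every named gene under every alternative, except Irgm1, which went from 1.13 to a range of -0.22 to 1.99 with 1 array left out (lowest without replicate 1 of 16 days), and Kit, which went from 0.09 to a range of -0.081 to 0.26 (lowest without replicate 3 of 16 days) and to -0.036 on the 6 numbered arrays with and without the replicate block. The 1072 called genes became 469 with treat at 1.2-fold, 402 with at least 2-fold, and 613 to 1047 with 1 array left out (613 without replicate 1 of 16 days). The 50 peaks became 23 with centred arrays, 27 with blanks missing, 107 with array weights, 172 with the olfactory covariate, 1 with treat, 0 at 2-fold, 113 without both arrays with raised olfactory receptor genes, and 16 to 84 with 1 array left out. The 56 dips became 35 with blanks missing, 6 with treat, 2 at 2-fold, and 18 to 68 with 1 array left out. Defined by the contrast's call and the most extreme mean there were 163 peaks and 280 dips, and by the larger p-value adjusted over all genes 0 and 0 (166 and 128 with both unadjusted p-values under 0.05). The replicate block, on the 6 numbered arrays, gave 550 called genes, 0 peaks, 11 dips and 0 interferon-inducible genes. With the block, 38 genes were higher at 16 days with both unadjusted p-values under 0.05. The same arrays without the block gave 504, 2, 12 and 0, so the loss was also seen without the block. These arrays leave out replicate 3 of each age, which changes their number and which arrays remain. The part of each in the loss was not tested. The 2 interferon-inducible genes called became 0 with treat and at 2-fold, and 1 to 8 with 1 array left out. At an unadjusted limma p under 0.05, 15 were called with the block, 10 without it and 4 with treat. The other alternatives stayed within 1.5 times each of these counts; the 461 higher and 611 lower genes, however, became 735 and 683 with the olfactory covariate. The small number of arrays limits all of these counts.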

Other observations

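Array rows that carry several gene symbols or none were kept out of the gene test. Of 1605 rows with several symbols, 23 were higher and 138 lower in the contrast of 16 days with the average of 8 and 24 days, with 1 peak and 0 dips. Of 5430 rows with no symbol, 26 were higher and 51 lower, with 2 peaks and 0 dips.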
